A study of Caenorhabditis elegans with 6 samples.

Results

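The comparison was between worm pools of the same labelled age that carry different batch numbers. The libraries of batch 2 are 2 of the 6 libraries of the series and were set against the 4 libraries of batches 3 and 4, chosen by the batch label alone, with the RNAi treatment as a covariate. All 6 libraries came from pools of whole Caenorhabditis elegans of the strain CL2006, which carries pCL12, a minigene that expresses the human Abeta peptide 1-42 in muscle from the unc-54 promoter, together with the rol-6 marker plasmid pRF4. No pool without these transgenes was compared. Each batch holds 1 pool fed HT115 bacteria with an empty vector and 1 pool fed bacteria labelled as expressing RNAi against the 3' UTR of gtr-1, a G protein-coupled receptor gene. Feeding covered 2 generations at 20 °C, progeny were washed away daily, and the second generation was collected on adult day 6. The labels give each batch a number and do not say what else differed between batches, so a p-value measures the spread between these libraries and not between repeated batches.

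The targeted gene did not separate the treatments. Counts of gtr-1 in batches 2, 3 and 4 were 32, 16 and 12 under empty vector and 38, 26 and 11 under the gtr-1 RNAi label, and the latter pools are therefore called by their label throughout. Where a pair of values is given for a batch, the first is the empty vector library and the second the library labelled gtr-1 RNAi. Levels are given as CPM, counts relative to the library total after scaling by the trimmed mean of M values (TMM), and are not divided by gene length. Log2 fold changes are batch 2 over batches 3 and 4 and carry their SE from the fit. A gene was called when its adjusted p lay under 0.05 in edgeR's quasi-likelihood test with Benjamini-Hochberg adjustment over the 16269 genes tested. Near-identical genes such as the major sperm proteins and some collagens may share reads.

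The gene classes followed here mark separate parts of the worm. The cuticle is a collagen exoskeleton secreted by the epidermis; most of its collagens are made in waves before each larval molt, and col-19 is a collagen of the adult. Sperm are made by hermaphrodites in the last larval stage and early adulthood and contain abundant major sperm proteins, which drive their crawling movement and signal to oocytes. Yolk proteins, the vitellogenins, are made in the adult intestine and taken up by oocytes through the receptor RME-2, while the germline fills much of the adult body and supplies the RNA of meiosis, oocytes and eggs.

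Batch 2 stood apart from both other batches, and the other batches did not stand apart from each other by the same test. In batch 2, 3957 genes were higher, 24.3% of those tested, and 4436 were lower, 27.3%. Among the 14950 genes that reached the count minimum in at least 2 libraries of each group, 3300 (22.1%) were higher and 4427 (29.6%) lower. In a fit with 3 batch levels, 2433 genes (15%) were higher and 4066 (25%) lower in batch 2 than in batch 3, and against batch 4 the counts were 3792 (23.3%) and 4342 (26.7%). Between batches 3 and 4 edgeR called 0 genes in either direction. Without adjustment 940 lay above and 464 below 0 there with p under 0.05, and the DESeq2 Wald test called 72 and 21. The median absolute log2 difference between libraries was 0.39 to 0.522 for pairs that joined batch 2 with another batch, 0.151 to 0.221 for pairs of batches 3 and 4, and 0.164 to 0.181 within a batch. On the first principal component of the 500 most variable genes, with 79.2% of their variance, the batch 2 libraries lay at 47.7 and 43.7, those of batch 3 at -25.1 and -5.66 and those of batch 4 at -33.7 and -26.9.

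The higher and the lower genes differed in size and in level. Genes called higher had a median of 1.21 CPM in batches 3 and 4 and a median fold of 2.48, and 2467 of them (15.2% of genes tested) were higher by 2-fold or more. Genes called lower had a median of 87 CPM and were lower by a median of 1.34-fold, and 45 (0.277%) reached 2-fold. Of the 3946 genes with a mean under 1 CPM, 36.3% were higher and 0.329% lower. This class holds most genes that passed the filter through batch 2 alone and so could hardly be lower, and of its 2637 genes that reached the minimum in both groups 29.7% were higher and 0.228% lower. Of the genes with 1 to 10 CPM, 35.3% were higher and 2.4% lower, and of those with 10 to 100 CPM, 14.5% and 48.6%. Of the 2368 genes with 100 CPM or more, 4.1% were higher and 75% lower. Total counts ran from 43067539 to 59812227, and 16508 and 16396 genes had 10 or more counts in batch 2 against 14680 to 15236 in the other libraries. The TMM factors were 1.113 and 1.103 in batch 2 and 0.93 to 0.975 elsewhere, and the median log2 fold change of all genes tested was 0.16 with TMM, 0.39 with library totals and 0.08 with DESeq2 size factors. Library totals in place of TMM moved the split to 6223 higher and 2344 lower genes, and DESeq2 size factors to 3649 and 4662. In whole worms, fewer cells of a type and less RNA per cell cannot be told apart.

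**Figure D1:**
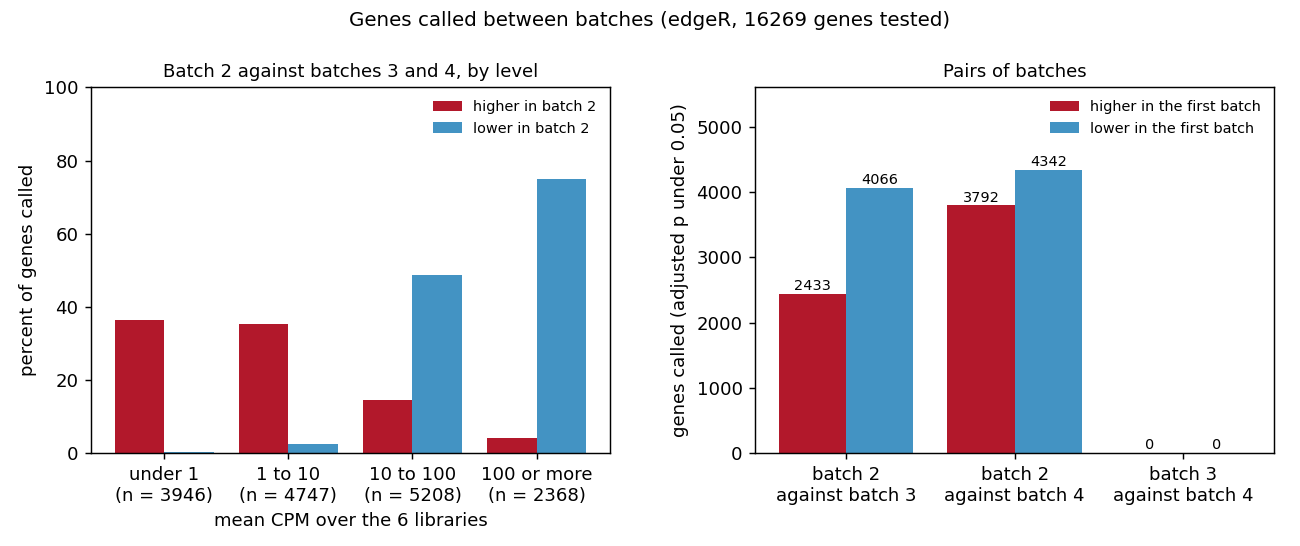
Left, percent of genes called higher or lower in batch 2 against batches 3 and 4, in 4 classes of mean CPM over the 6 libraries; right, number of genes called for each pair of batches (edgeR, adjusted p under 0.05). The lower calls reach 75% of genes at 100 CPM or more and 0.329% under 1 CPM, a class that includes genes passing the filter through batch 2 alone, and batches 3 and 4 have 0 calls between them.

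Of the 36 gene lists examined, the cuticle collagens had the most higher genes, 122 of the 154 tested. Their share of 79.2% was below that of some smaller lists, such as the major sperm proteins (100% of 28) and the pharynx genes (81.2% of 16). The summed level of the 176 collagens was 13440 and 17735 CPM in batch 2, 7680 and 9877 in batch 3 and 5336 and 6158 in batch 4. Both batch 2 libraries lay above all others, the batch 2 mean was 2.15-fold the mean of the rest, and the exact two-sided permutation test on their share of counts gave p = 0.133, the smallest that 2 against 4 libraries allow. Of the 141 collagens that reached the count minimum in both groups, 113 were higher and 0 lower, with a median log2 fold change of 2.74, beside 22.1% higher and a median of 0.09 among all such genes. A further 12 reached the minimum only in batch 2. The median over all 154 tested was 2.97 with library totals and 2.67 with DESeq2 size factors, with 0 lower under both.

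dpy-5, a collagen of body shape, had 130.3 and 111.9 CPM in batch 2, 3.498 and 17.62 in batch 3 and 1.353 and 6.804 in batch 4 (log2 fold change 4.53 ± 0.68, edgeR adjusted p = 0.00243). dpy-13 had 157 and 132, 3.72 and 21.9, and 1.61 and 8.24 CPM in the same order of batches. dpy-4 had 190 and 162, 5.11 and 26.3, and 2.26 and 9.07 CPM. These collagens were chosen among genes whose groups did not overlap, so the lack of overlap is not a result about them. In each, the batch 3 library labelled gtr-1 RNAi was the highest of the other 4. That library was the highest of the 4 in 137 of the 154 collagens tested.

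Among the numbered collagens, col-73 had 151 and 162 CPM in batch 2 against 3.50, 21.3, 1.37 and 7.10 in the others, with 4.75 ± 0.68 on the log2 scale (edgeR adjusted p = 0.00206). col-133, col-145, col-41, col-92, col-161 and col-162 had log2 fold changes of 4.86, 4.72, 4.69, 4.62, 4.6 and 4.58. With col-73 and the 3 dpy genes they made up the 10 highest called genes with a letter-and-number name. That ranking took only genes of 10 CPM or more whose groups did not overlap. col-41 differed within batch 2, with 79.4 CPM in the empty vector library and 12.5 in the other. The bli collagens, named for the blistered cuticle of their mutants, were high too. bli-1 had 14.9 and 39.8 CPM in batch 2 and 0.318 to 5.36 elsewhere, with 4.10 (adjusted p = 0.00168), and bli-2 and bli-6 had 4.00 and 4.03.

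col-19, the adult collagen, had 337.9 and 429.8 CPM in batch 2, 82.46 and 119.4 in batch 3 and 63.21 and 67.56 in batch 4 (2.21 ± 0.21, edgeR adjusted p = 0.000709). The groups did not overlap. rol-6, to which the marker plasmid can also contribute reads, had 130 and 212, 162 and 183, and 160 and 122 CPM, and its groups overlapped (0.11 ± 0.21, adjusted p = 0.695). Its value changed sign with the treatment label. It was -0.32 among the empty vector libraries and 0.40 among the libraries labelled gtr-1 RNAi, with 1 batch 2 library in each fit (edgeR adjusted p = 0.0144 and 0.00481). unc-54, whose promoter drives the minigene, did not pass either (0.31 ± 0.16, adjusted p = 0.149).

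The collagens that were most abundant in batches 3 and 4 had smaller fold changes. Of the 10 with a mean of 200 CPM or more there, 3 were higher in batch 2 and their median log2 fold change was 0.27, whereas 82.6% of the other 144 were higher, with a median of 3.02. The edge of 200 CPM was set after the values were seen, and a split by the level in batches 3 and 4 favours lower values in the abundant group. col-140 had the largest value of the 3, with 655 and 1145 CPM in batch 2, 499 and 723 in batch 3 and 355 and 470 in batch 4, so that the groups overlapped (0.78, edgeR adjusted p = 0.0188). It was not called without the batch 2 library labelled gtr-1 RNAi. col-95, with 207 and 594 CPM in batch 2 and 390 to 703 elsewhere, did not pass (-0.56, edgeR adjusted p = 0.225). Abundant collagens still lay above other abundant genes. By the mean over all 6 libraries, 13 of the 21 collagens at 100 CPM or more were higher, with a median of 0.78. Of all genes of that level 4.1% were higher and 75% lower, with a median of -0.37.

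The 6 collagens of the circumferential furrows, dpy-2, dpy-3, dpy-7, dpy-8, dpy-9 and dpy-10, were all called higher. dpy-8 had 15.9 and 13 CPM in batch 2, 0.587 and 3.18 in batch 3 and 0.275 and 1.03 in batch 4 (3.93 ± 0.69, edgeR adjusted p = 0.00442). dpy-10 differed least, with 25.4 and 17.4, 8.73 and 14.3, and 8.10 and 12.5 CPM (1.02, adjusted p = 0.0178). The groups did not overlap in any of the 6, as they did not, with batch 2 above, in 34.8% of all genes tested, and in each the empty vector library was the higher of the batch 2 pair. Leaving out the batch 2 or the batch 4 empty vector library took the count to 5, and batch 3 as the only comparison to 2.

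**Figure D2:**
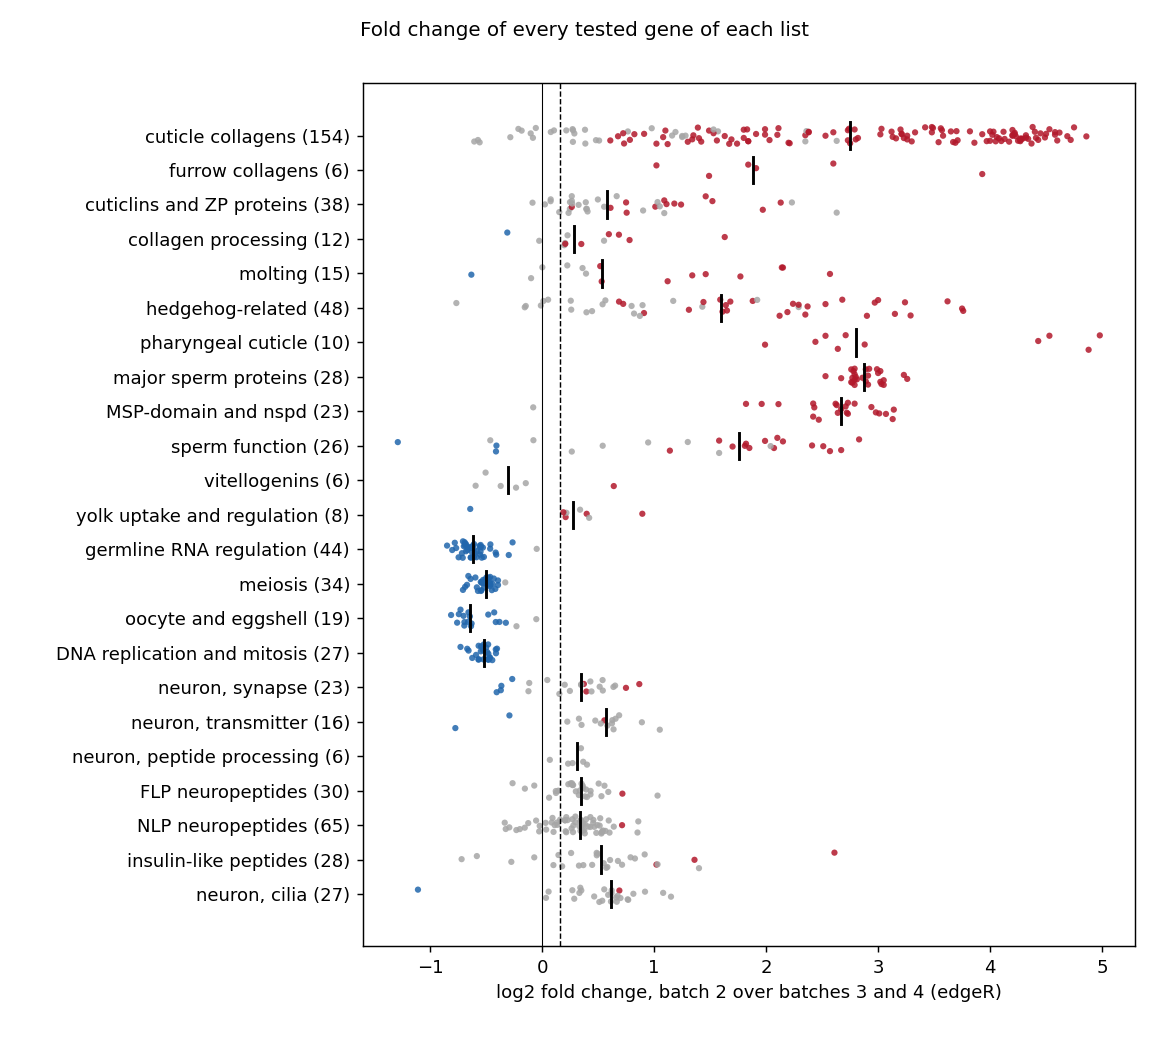
Log2 fold change (batch 2 over batches 3 and 4, edgeR) of every tested gene of 23 lists, with the number tested in brackets; red and blue points were called higher and lower, grey points were not called, black bars are list medians and the dashed line is the median of all genes tested, 0.16. Collagens and sperm proteins lie far to the right, and the germline and oocyte lists lie close together to the left of 0.

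Enzymes that modify collagens had smaller fold changes than the collagens. Of 12, 6 were higher and 1 lower, beside 24.3% and 27.3% of all genes tested, with a median log2 fold change of 0.29. phy-2, a subunit of prolyl 4-hydroxylase, had 33.1 and 36.7 CPM in batch 2 and 20.2 to 26.2 elsewhere (0.59 ± 0.10, edgeR adjusted p = 0.00425), and mlt-7, a peroxidase that crosslinks the cuticle, had 29.8 and 29 against 14.7 to 22.1 (0.78 ± 0.16, adjusted p = 0.00884). bli-4, a proprotein convertase, was lower, with 231 and 237 CPM against 284 to 298 (-0.31 ± 0.04, adjusted p = 0.00176), and its call was lost with library totals and when the batch 2 empty vector library was left out (0.0786). The count of higher enzymes fell to 2 without the batch 2 library labelled gtr-1 RNAi and to 3 without the batch 2 empty vector library or either batch 4 library.

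Cuticlins and other zona pellucida proteins are cuticle components that are not collagens. Of the 34 that reached the minimum in both groups, 11 were higher and 0 lower, with a median of 0.53. Among all such genes 22.1% were higher and 29.6% lower, with a median of 0.09. Of the 20 tested members with 1 to 10 CPM 5 were higher, beside 35.3% of all genes of that level. Under 1 CPM 4 of 10 were higher, beside 36.3%, and at 10 to 100 CPM 3 of 7, beside 14.5%. cut-4 had 3.24 and 3.9 CPM in batch 2, 1.0 and 1.11 in batch 3 and 0.55 and 0.582 in batch 4 (2.13 ± 0.33, edgeR adjusted p = 0.00287), and noah-1, of the apical matrix, was higher by 0.75 (adjusted p = 0.00614). cut-2 had 135 and 38.8, 9.0 and 44, and 5.52 and 23.7 CPM, so its groups overlapped, and it did not pass (2.63 ± 0.93, adjusted p = 0.0546). The list's higher count over all 38 tested was 13, and it was 4 without the batch 2 empty vector library, 21 without the other batch 2 library and 6 to 8 without either batch 4 library or the batch 3 empty vector library.

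Of 15 molting genes 9 were higher and 1 lower, beside 24.3% and 27.3% of all genes tested, and their median was 0.53. mlt-10, which is needed to shed the old cuticle, had 50.2 and 31 CPM in batch 2, 7.19 and 14 in batch 3 and 6.92 and 10.5 in batch 4 (2.14, edgeR adjusted p = 0.00243). mlt-9, mlt-8 and mlt-11 were higher by 2.57, 1.77 and 1.34 on the log2 scale. The astacin proteases nas-36 and nas-37, which open the old cuticle, were higher by 2.15 and 1.12. lin-42, the worm homologue of Period that cycles with the molts, had 45.3 and 48.8 CPM in batch 2 against 14.6 to 22.2 (1.46, adjusted p = 0.000653). nhr-23, a nuclear receptor required for molting, went the other way, with 36.7 and 37.3 CPM in batch 2 and 53.3 to 59.7 elsewhere (-0.63, adjusted p = 0.000721). myrf-1, a transcription factor of larval molting, had 49.6 and 45.4 CPM in batch 2 and 45.2 to 51.1 elsewhere (edgeR adjusted p = 0.993).

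Hedgehog-related proteins, secreted by the epidermis, had 26 higher and 0 lower among 40 that reached the minimum in both groups, and a median of 1.6. Among all genes that did so 22.1% were higher and 29.6% lower. grl-16 had 96.4 and 68.8 CPM in batch 2, 4.04 and 19.3 in batch 3 and 1.92 and 9.81 in batch 4 (3.75, edgeR adjusted p = 0.00453). wrt-4 and grd-6 were higher by 3.76 and 3.62. wrt-5, with 8.70 and 8.17 CPM in batch 2 and 6.17 to 8.20 elsewhere, did not pass. The abu genes, which encode glutamine- and asparagine-rich proteins of the pharyngeal cuticle, had 7 of 7 higher among those that reached the minimum in both groups, with a median of 2.64. abu-14 had 59.3 and 36.1 CPM in batch 2, 5.50 and 22.3 in batch 3 and 3.57 and 13.3 in batch 4 (2.53, adjusted p = 0.0142). With batch 3 as the only comparison grl-16 and abu-14 were not called.

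Sperm genes formed the other strongly higher class. The summed level of the 31 major sperm protein genes was 253.7 and 249.2 CPM in batch 2, 57.8 and 33.8 in batch 3 and 44.1 and 14 in batch 4. Both batch 2 libraries lay above the others, 6.72-fold by their means (exact permutation p = 0.133). All 27 that reached the minimum in both groups were called higher, with a median log2 fold change of 2.86, and 28 or 29 were called when each library in turn was left out. msp-57 had 18.2 and 14 CPM in batch 2, 3.13 and 1.91 in batch 3 and 2.73 and 0.698 in batch 4 (3.03, edgeR adjusted p = 0.00116). msp-113 had the smallest p of the list, with 4.46 and 2.86 CPM against 0.155 to 0.612 (3.26 ± 0.30, adjusted p = 0.000683). msp-38 had the lowest value of the list, 2.53. Of all genes that reached the minimum in both groups, 22.1% were higher.

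Other sperm proteins followed. The genes of the MSP-domain and nspd families had 19 of 20 higher in the class that reached the minimum in both groups, with a median of 2.69. Of all genes in that class 22.1% were higher. ssq-2 had 24.4 and 24.2 CPM in batch 2, 4.57 and 3.20 in batch 3 and 3.62 and 1.32 in batch 4 (3.01 ± 0.35, edgeR adjusted p = 0.00105). msd-4 and nspd-5 were higher by 2.98 and 3.14. ssp-37 alone was not called among the tested genes, at 7.93 and 8.54 CPM against 7.47 to 11.4. gsp-3 and gsp-4, sperm-specific phosphatase catalytic subunits, were higher by 2.83 and 2.67; gsp-3 had 7.77 and 10.1 CPM in batch 2, 2.1 and 1.19 in batch 3 and 1.84 and 0.465 in batch 4.

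Genes of sperm formation did not all follow. Among the 20 of that list that reached the minimum in both groups, 11 were higher and 3 lower. The shares among all such genes were 22.1% and 29.6%. The 3 lower genes were the only members at 10 to 100 CPM, where 48.6% of all genes were lower, with a median of -0.22. fog-1, the regulator that directs germ cells to the sperm fate, had 29.3 and 26.5 CPM in batch 2, 82.2 and 51 in batch 3 and 83.4 and 61.7 in batch 4, and it was lower by 2.44-fold (-1.29 ± 0.12, edgeR adjusted p = 0.000698). spe-44, a regulator of spermatocyte genes, was lower too, with 12.8 and 12.3 CPM against 15.6 to 17.5 (-0.41, adjusted p = 0.0148), but not without either batch 2 library or with library totals. spe-48 was lower as well, by 0.41 on the log2 scale. fog-3, which acts with fog-1, did not pass (-0.46, adjusted p = 0.162). The list's count of higher genes, 15 of 26 tested, was 10 without the batch 2 library labelled gtr-1 RNAi and 21 without the batch 2 empty vector library.

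Markers of males gave no call. Of the 10, 5 were tested and edgeR called 0 in either direction, with 1 above 0 at p under 0.05 without adjustment, and the DESeq2 Wald test also called 0. Their summed level was 3.53 and 3.35 CPM in batch 2 and 2.15 to 3.62 elsewhere. lov-1 and pkd-2, channel proteins of male sensory neurons, had at most 9 and 13 counts in any library, and cwp-1 and cwp-3 at most 1.

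**Figure D3:**
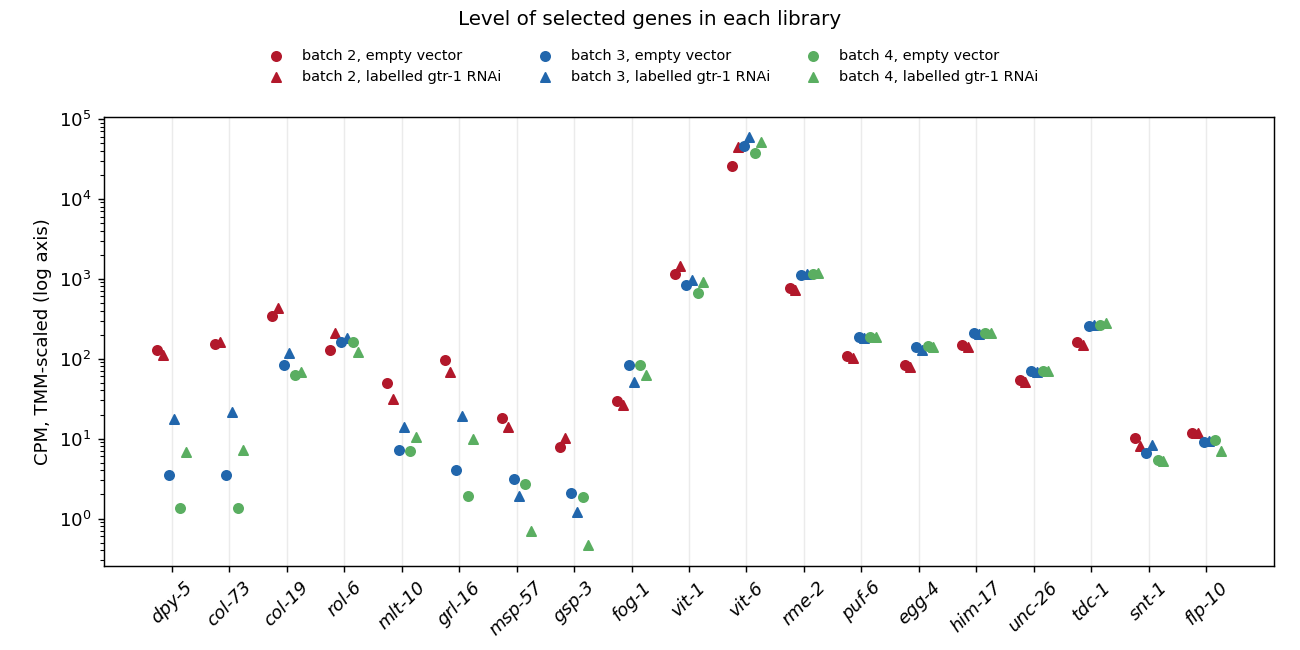
CPM of 19 genes in each of the 6 libraries (log axis); circles are empty vector libraries and triangles libraries labelled gtr-1 RNAi, coloured by batch. Batch 2 lies above the others for collagen, molting and sperm genes such as dpy-5, mlt-10 and msp-57 and below them for fog-1, rme-2, puf-6 and egg-4, and the groups overlap for rol-6 and vit-6.

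Yolk genes did not move as a class. The 6 vitellogenins together took 6.94% and 10.3% of the counts in batch 2, 9.51% and 10.9% in batch 3 and 7.53% and 9.59% in batch 4, so the groups overlapped (exact permutation p = 0.8). vit-1 was the only vitellogenin called, with 1148 and 1454 CPM in batch 2, 827 and 951 in batch 3 and 658 and 904 in batch 4 (0.64 ± 0.09, edgeR adjusted p = 0.00214). The other 5 lay below 0 and did not pass. vit-6 had 25492 and 44310 CPM in batch 2, 46274 and 58662 in batch 3 and 37589 and 50713 in batch 4 (-0.51 ± 0.18, adjusted p = 0.055). vit-2 had 19908 and 28783, 25455 and 35602, and 17962 and 29119 CPM (-0.15 ± 0.18, adjusted p = 0.511). vit-5 had -0.37, vit-4 -0.59 and vit-3 -0.23, with adjusted p of 0.0811, 0.11 and 0.327. Without the batch 2 library labelled gtr-1 RNAi, 4 vitellogenins were called lower, and the DESeq2 Wald test called 2. Within batch 2 the empty vector library was the lower of the pair for all 6 genes.

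The genes of yolk uptake and regulation went both ways. rme-2, the yolk receptor of oocytes, had 760 and 714 CPM in batch 2, 1128 and 1131 in batch 3 and 1152 and 1193 in batch 4, and was lower by 1.56-fold (-0.64 ± 0.06, edgeR adjusted p = 0.000658). The intestinal genes of the list were on the other side: dsc-4, which loads lipid onto yolk, was 1.32-fold higher (adjusted p = 0.00395) and ceh-60, a regulator of vitellogenin transcription, 1.86-fold higher, at 5.93 and 4.89 CPM against 2.38 to 3.50 (adjusted p = 0.00932). pqm-1 and unc-62, regulators of intestinal transcription, were called at 0.21 and 0.19, and each lost its call when any of 5 of the 6 libraries was left out.

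Germline genes were lower almost without exception, by small and even amounts. The germline RNA-binding and germ granule list had 43 of 44 lower and 0 higher, with a median log2 fold change of -0.61, the meiosis list 33 of 34 with -0.50, and the DNA replication and mitosis list 27 of 27 with -0.52. All members of these 3 lists had 10 CPM or more, where lower calls were common in any case: of the genes with 100 CPM or more 75% were lower, with a median of -0.37, and of those with 10 to 100 CPM 48.6%, with a median of -0.22. With library totals in place of TMM the medians were -0.39, -0.28 and -0.30 and 39, 25 and 27 genes were lower. With DESeq2 size factors they were -0.70, -0.59 and -0.61.

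puf-6, a translational repressor of the germline, had 109 and 103 CPM in batch 2, 185 and 180 in batch 3 and 189 and 186 in batch 4 (-0.80 ± 0.04, edgeR adjusted p = 0.000653). hrde-1, a nuclear Argonaute of inherited silencing, had 572 and 554, 986 and 948, and 1077 and 1050 CPM (-0.85). glp-1, the Notch receptor that keeps germ stem cells dividing, had 228 and 220 against 349 to 379 (-0.71). The libraries of batches 3 and 4 lay close together for these genes and the groups did not overlap. fbf-2, a factor of the mitotic stem cell zone, was the exception, with 25.8 and 20.2 CPM in batch 2 and 20.5 to 26.6 elsewhere (-0.05, adjusted p = 0.757). Among the meiotic genes, him-17 had 147 and 140 CPM against 205 to 211 (-0.54), spo-11, which makes meiotic breaks, was lower by 0.71 on the log2 scale, and chk-2 did not pass (-0.33, adjusted p = 0.137).

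Oocyte and eggshell genes were lower in 17 of 19, with 0 higher and a median of -0.65. At 100 CPM or more, where 18 of them lay, 16 were lower, with a median of -0.65. Of all genes of that level 75% were lower, with a median of -0.37. egg-4, an oocyte pseudophosphatase of egg activation, had 84.3 and 78.4 CPM in batch 2, 139 and 128 in batch 3 and 143 and 140 in batch 4 (-0.76 ± 0.05, edgeR adjusted p = 0.000653). cbd-1, of the eggshell's vitelline layer, had 2445 and 2248 CPM against 3513 to 3788 (-0.64), and cpg-1, a chondroitin proteoglycan of the eggshell, 2106 and 1896 against 3032 to 3389 (-0.70). Among the perm genes of the permeability barrier, perm-4 was lower by 0.38, a call lost without the batch 2 empty vector library, and perm-2 did not pass (-0.23, edgeR adjusted p = 0.0503). cav-1 lay at -0.05 with overlapping groups. The count stayed between 15 and 18 of 19 lower with library totals, with DESeq2 size factors and without each library in turn.

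Genes switched on in embryos did not follow the oocyte genes as a list, but the lists differ in level. Of 43 that reached the minimum in both groups, 8 were higher and 4 lower, with a median of 0.17. Among all such genes 22.1% were higher and 29.6% lower, with a median of 0.09. Of the 46 tested, 15 lay under 1 CPM and 24 at 1 to 10 CPM, where 0.329% and 2.4% of all genes were lower. The 3 with 100 CPM or more were all lower, with a median of -0.48. end-1, a regulator of endoderm that reached the minimum only in batch 2, had 0.629 and 0.623 CPM there and 0.0634 to 0.198 elsewhere. hlh-1, of body wall muscle, had 4.84 and 3.37 against 1.61 to 2.32 (1.09, edgeR adjusted p = 0.0101), and it was not called without the batch 2 empty vector library. nob-1, a posterior Hox gene, was higher by 1.21. lin-26, of epidermal fate, was lower by 0.48, and pal-1, a homeobox gene whose RNA the mother also supplies, by 0.58. The summed level of the list's 55 genes was 539 and 514 CPM in batch 2 and 585 to 638 elsewhere. The molting, embryo and male markers are given here because a pool of adults can also hold larvae, eggs or males; their part in the differences of the collagens and sperm proteins was not tested.

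Neuronal lists are set here first beside 24.3% higher and 27.3% lower among all genes tested, and then beside genes of their level. Of the 23 synaptic genes 4 were higher and 4 lower (17.4% each), of 16 transmitter genes 1 and 2, and of 6 neuropeptide processing genes 0 and 0. For the processing genes the count was also 0 without adjustment and by the DESeq2 Wald test. The FLP neuropeptides had 1 higher of 30, the other neuropeptides 1 higher of 65, and the ciliary genes 1 higher and 1 lower of 27. Medians ran from 0.31 to 0.61, where all genes had 0.16 but those of 1 to 10 CPM 0.47 and those under 1 CPM 0.84. At 1 to 10 CPM the FLP peptides had a median of 0.36, the other neuropeptides 0.34 and the ciliary genes 0.61. Under 1 CPM the other neuropeptides had 0.39 and the ciliary genes 0.68. Of the genes with 1 to 10 CPM, 1 of 23 FLP peptides, 0 of 42 other neuropeptides and 1 of 13 ciliary genes were higher. So were 2 of 8 synaptic and 0 of 9 transmitter genes, beside 35.3% of all genes of that level. At 10 to 100 CPM 2 of 12 synaptic genes were lower, beside 48.6% of all genes. The insulin-like peptides had 3 higher and 0 lower of 28, and 1 higher among the 24 that reached the minimum in both groups. ins-33, which reached it only in batch 2, had 1.37 and 0.678 CPM there and 0.127 to 0.198 elsewhere (2.61 ± 0.38, edgeR adjusted p = 0.00231).

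Among the genes called lower, unc-26, the synaptojanin of vesicle recycling, had 54.3 and 50.4 CPM in batch 2, 70.8 and 67.4 in batch 3 and 69.6 and 69.7 in batch 4 (-0.41 ± 0.05, edgeR adjusted p = 0.00115). unc-11, a clathrin adaptor, was lower by 0.37 and snb-1, the synaptobrevin, by 0.27; the call of snb-1 was lost with library totals and when the batch 2 empty vector library was left out (edgeR adjusted p = 0.135). tdc-1, the tyrosine decarboxylase that makes tyramine in neurons and in gonadal sheath cells, had 161 and 150 CPM in batch 2 and 257 to 278 elsewhere (-0.78 ± 0.05, adjusted p = 0.000653). dyf-3, a ciliary transport gene, had 5.22 and 6.45 CPM against 11.9 to 13.2 and was lower by 2.17-fold (adjusted p = 0.00084).

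Among the synaptic genes called higher, unc-31, needed for dense core vesicle release, had 8.06 and 6.76 CPM in batch 2 and 3.50 to 5.20 elsewhere (0.75, edgeR adjusted p = 0.0279), and sng-1, the synaptogyrin, was higher by 0.87 (adjusted p = 0.0421). Both lost their call without either batch 2 library. rab-3, with 9.80 and 8.16 CPM in batch 2, 6.21 and 8.95 in batch 3 and 4.84 and 4.90 in batch 4, did not pass (0.54, adjusted p = 0.147). flp-10 had 11.8 and 11.9 CPM against 7.06 to 9.60 and did not pass (0.43, adjusted p = 0.052). Batch 3 lay between batches 2 and 4 for these lists: the median of the FLP peptides was 0.04 against batch 3 and 0.72 against batch 4, and that of the processing genes 0.01 and 0.70. Leaving out the batch 3 library labelled gtr-1 RNAi raised the higher calls to 13 of 23 synaptic genes, 9 of 16 transmitter genes, 6 of 30 FLP peptides, 9 of 65 other neuropeptides and 8 of 27 ciliary genes; leaving out the batch 2 empty vector library took them to 1, 0, 0, 0 and 0.

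**Figure D4:**
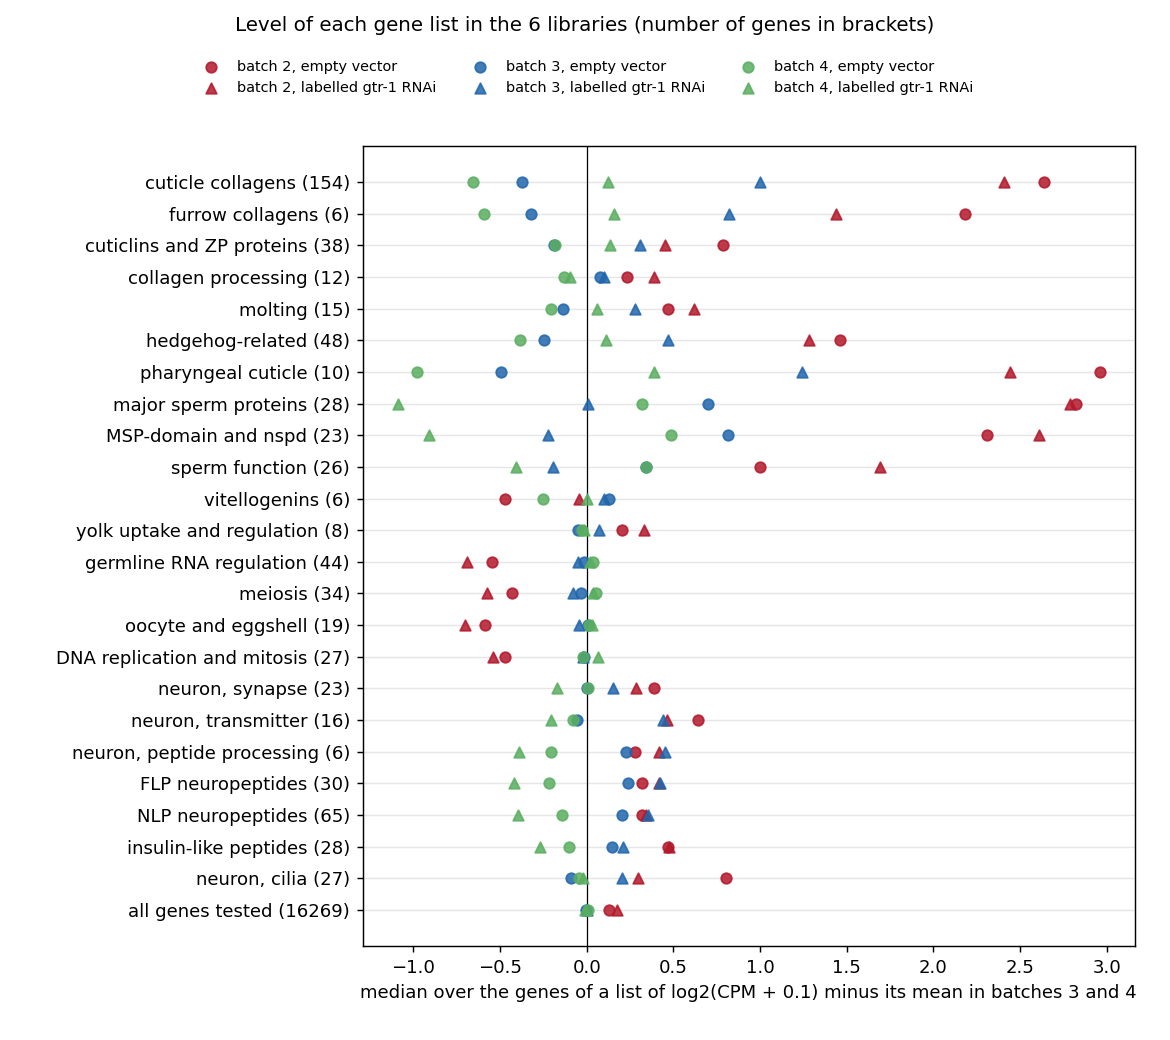
Median over the tested genes of each list of log2(CPM + 0.1) minus the gene's mean in batches 3 and 4, for each of the 6 libraries, with the number of genes in brackets. The batch 2 libraries lie at 2.64 and 2.41 for cuticle collagens and at 2.82 and 2.79 for major sperm proteins, all other libraries at 0.998 or below, while for the FLP neuropeptides a batch 3 library lies as high as the batch 2 pair.

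Cuticle and sperm genes differed in which libraries of batches 3 and 4 lay nearest to batch 2. For collagens it was the batch 3 library labelled gtr-1 RNAi, at 0.998 above the mean of the 4, where the empty vector pools of batch 3 and of batch 4 lay at -0.37 and -0.66. For the major sperm proteins it was the batch 3 empty vector library, at 0.70, and the batch 4 library labelled gtr-1 RNAi was lowest, at -1.09. Within the empty vector libraries alone the batch 2 difference therefore had a median of 3.79 for collagens and 2.38 for major sperm proteins, and within the libraries labelled gtr-1 RNAi 1.84 and 3.29. Leaving out the batch 2 empty vector library gave medians of 1.93 and 3.34, and leaving out the other batch 2 library 3.80 and 2.39.

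The test of that dependence, the interaction of batch 2 with the treatment label, called 0 genes in edgeR. Without adjustment 714 lay above and 822 below 0 with p under 0.05. The DESeq2 Wald test called 63 and 164, and edgeR with DESeq2 size factors 197 and 454. By the unadjusted p the collagens had 3 above and 66 below 0 of 154, the major sperm proteins 2 above and 0 below of 28, and the sperm function genes 11 above and 0 below of 26. dpy-7 was an example, with a batch 2 log2 fold change of 2.60 in the empty vector libraries and 0.86 in the others (interaction unadjusted p = 0.00945 in edgeR). For the germline list the same pair of medians was -0.58 and -0.75, so its direction was the same under both labels.

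Outside the lists, the lowest called genes among those whose groups did not overlap were of several kinds. Among genes of 10 CPM or more, F40D4.13 had 10.79 and 32.66 CPM in batch 2, 78.06 and 122.7 in batch 3 and 82.9 and 110.5 in batch 4 and was lower by 4.99-fold (edgeR adjusted p = 0.000844). F15D4.5 had 36.1 and 46.1 CPM against 142 to 192 and was lower by 3.99-fold (-2.0 ± 0.05, adjusted p = 0.000134). saeg-2, named as a suppressor of the activated cGMP-dependent kinase EGL-4, had 17.2 and 20.3 CPM against 61.9 to 67.6 (3.43-fold lower). rde-11, an RNAi factor, had 34.8 and 38.2 CPM against 63.9 to 69.7 (-0.88), and rnh-1.3, of the RNase H family, and dmd-9, of the DM domain family, were lower by 0.94 and 0.89. lrg-1 was lower by 1.08.

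Other low genes differed within a group. dct-17 had 4.55 CPM in the batch 2 empty vector library and 19 in the other batch 2 library, against 19 to 34.1 elsewhere (-1.44, edgeR adjusted p = 0.0189). Without the batch 2 empty vector library its log2 fold change was -0.77. drd-50 had 3.96 and 15.2 CPM against 17.1 to 25.2 (-1.32, adjusted p = 0.0476) and was not called without the batch 2 empty vector library or either batch 4 library. asp-17, an aspartyl protease, had 14.5 and 21 CPM, with 53.8 and 54.3 in the other empty vector libraries and 28.4 in both other libraries of the gtr-1 label (-1.11, adjusted p = 0.0263), and it was not called without the batch 4 empty vector library. B0024.4 had the same order, with 27.6 and 39.46 CPM in batch 2, 125.8 and 64.25 in batch 3 and 106.4 and 51.57 in batch 4. By the same rule, the highest genes without a letter-and-number name were Y47D7A.15, Y47G6A.15 and T22F3.11. Y47D7A.15 had 47.9 and 41.6 CPM against 0.190 to 4.85 (4.90), and the others had 4.04 each.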

How the data were processed

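The authors' deposited table held whole-number counts per gene for the 6 libraries. Per the labels' protocols the libraries were made with a stranded mRNA kit; per the submitters' processing notes cutadapt 2.10, TopHat2 2.1.1, HTSeq 2.01 and DESeq2 1.36.0 were named with the build WBcel235, and no source used here gives the strand setting of the counting. Of 46934 rows, 22416 held counts. Genes were tested with edgeR 4.0.16 in R 4.3.3: 16269 genes passed filterByExpr at its minimum of 10 counts, libraries were scaled by TMM, and glmQLFit was fitted with treatment and batch 2 as terms (3 residual degrees of freedom). A 3-level batch factor gave the pairs of batches. The fit was tested on simulated data. DESeq2 1.42.0 served as an alternative, as did other scalings, filters and subsets and leaving out each library; the DESeq2 fits for pairs of batches and the class reaching the minimum in both groups were added after seeing the data, as was the split of levels for that class. The members and the 36 gene lists were chosen with earlier results of these data known. A list is described by its counts and median beside all genes, with no test of the list against other genes. The exact permutation test compares only a list's share of counts between the libraries of the groups.

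Named genes were chosen by rule, and not all of them are given in the text. They were the 4 smallest p of each list of the 5 classes, all vitellogenins, gtr-1, unc-54 and rol-6. To these came, among called genes of 10 CPM or more whose groups did not overlap, the 10 highest and 10 lowest with a letter-and-number name. Of the others, 3 in each direction were taken by the same rule. The extreme families were added. Of the 4 collagens with the smallest p, the text gives only col-19. Further members were named after their values were seen, to show the range of a list. Exons of dpy-8, bli-4, vit-2, ceh-60, unc-26 and tdc-1 overlap another gene's in the Ensembl 115 annotation, so their counts may be shared. Total counts were 43067539 to 59812227 per library.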

Additional observations from a re-analysis of the deposited data

Results flagged for a closer look

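In 4 of the 141 groups of 4 libraries examined, a value of batches 3 and 4 lay apart from the other 3, its gap divided by the whole range exceeding Dixon's critical value at 95%. Chance flags about 1 group in 20. For vit-4 the ratio was 0.885, with 3970 CPM in the batch 3 empty vector library and 2687 to 2835 in the others. For vit-3 it was 0.883, with 2691 CPM in the same library and 1958 to 2044 in the others. For nlp-2 it was 0.903, with 1.42 CPM in the batch 3 library labelled gtr-1 RNAi and 0.856 to 0.911 in the others. For Y47G6A.15 it was 0.85, with 5.86 CPM in that library and 0.952 to 1.69 in the others, all of them under the 24.5 and 46.6 CPM of batch 2.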

How the results depend on the processing

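The count of genes higher in batch 2, 3957 as reported, was 6223 with library totals, 1363 with both batch 4 libraries left out, 2367 within the gtr-1 RNAi label and 2467 with a 2-fold minimum; it ranged from 2760 to 4251 when 1 library was left out. The count of lower genes, 4436, was 2344 with library totals and 45 with a 2-fold minimum, and 3521 to 4161 with 1 library left out. Between batches 3 and 4 the DESeq2 Wald test called 93 genes in all, and for the interaction it called 227 and edgeR with DESeq2 size factors 651, where edgeR called 0. The collagens called higher were 81 with both batch 4 libraries left out. The vitellogenins' share of counts in batch 2 over that in the rest was 0.919, and it ran from 0.74 without the batch 2 library labelled gtr-1 RNAi to 1.1, a reversal, without the batch 2 empty vector library. Of 1990 values for 105 named genes, 1772 stayed on their side of the threshold, 121 lost the call and 96 gained it. A further 1, rol-6 among the empty vector libraries, took the other sign (0.11 as reported, -0.32 there), and 0 called values reversed. Uncalled values that changed sign and stayed uncalled count among the 1772, such as vit-3 (-0.23 as reported, 0.03 within the gtr-1 RNAi label). Of the 684 list medians under the alternatives, 540 moved by less than the spread between libraries. The treatment label pairs the libraries of different batches: without it as a covariate 3903 genes were higher and 4298 lower. The other alternatives, namely no filter, a minimum count of 50, the DESeq2 Wald test, a 3-level batch factor, robust fitting and libraries summed by batch, gave 2874 to 4226 higher and 3581 to 4872 lower. Causes were not tested. Depth limits genes under 1 CPM, and 1 batch cannot show how often a batch of this kind occurs.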

Other observations

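Of 16 pharynx genes 13 were higher in batch 2 and 0 lower, beside 24.3% and 27.3% of all genes tested, with a median log2 fold change of 1.40. myo-2, the pharyngeal muscle myosin, had 124 and 105 CPM in batch 2, 45.2 and 88.7 in batch 3 and 29.1 and 39.2 in batch 4 (1.25, edgeR adjusted p = 0.0316), a call lost without either batch 4 library, and phat-4, a toxin-like gene of the pharyngeal glands, was higher by 3.52. Without the batch 4 library labelled gtr-1 RNAi 8 were called, and with batch 3 as the only comparison 2 were. Of 35 body wall muscle genes 11 (31.4%) were higher, near the 24.3% of all genes, and 2 lower, with a median of 0.25 beside 0.16; unc-52, the perlecan of the muscle basement membrane, had 283 and 261 CPM in batch 2 against 99.3 to 180 (1.10, adjusted p = 0.00381). That muscle count was 22 without the batch 3 library labelled gtr-1 RNAi, 3 without the batch 4 empty vector library, 4 without the batch 2 library labelled gtr-1 RNAi and 27 with library totals.

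Intestinal genes had 8 higher (47.1%) and 3 lower (17.6%) of 17, beside 24.3% and 27.3% of all genes tested. ifb-2, an intermediate filament of the intestine, was higher by 1.53 on the log2 scale, with both batch 2 libraries above the other 4 (edgeR adjusted p = 0.00351), whereas mtl-2, a metallothionein, was lower by 0.59 with overlapping groups. Cytosolic ribosomal proteins had a median of 0.01 with TMM, 0.23 with library totals and -0.08 with DESeq2 size factors, so no direction is given for them. Mitochondrial ribosomal proteins had 26 of 67 (38.8%) lower and a median of -0.17, where 48.6% of all genes of their level, 10 to 100 CPM, were lower with a median of -0.22. Their median turned to 0.05 with library totals. By chromosome, 7.66% of the 2323 tested genes of chromosome X were lower and 29% higher, and 40.1% and 40.3% of the genes of chromosomes I and III were lower.

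Among the 141 families of genes that share a name prefix and have 10 or more tested members, the highest medians belonged to msp (2.87), abu (2.80), col (2.74), nspd (2.72) and fipr (1.73). The lowest were wdr (-0.48), npp, of the nuclear pore (-0.48, 24 of 25 lower), him, of meiosis (-0.47, 10 of 11 lower), ints, of the Integrator complex (-0.46, 11 of 11 lower), and ced (-0.46, 9 of 12 lower). Of all genes tested 27.3% were lower. Lower calls were more common in abundant genes, with 48.6% at 10 to 100 CPM and 75% at 100 CPM or more, with medians of -0.22 and -0.37. The families were not compared with genes of their own level.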
